A study of Mus musculus with 17 samples.

Results

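Alpha-beta T cells were taken from the 8 single-cell libraries of mouse skin by the UMIs (unique molecular identifiers, counts of single RNA molecules) of their receptor genes. A cell belonged to the set with at least 2 UMIs of Trac, Trbc1 and Trbc2 together, at least 1 UMI of Cd3d, Cd3e and Cd3g together, no UMI of Trdc, and no UMI of Il17a or Cd163l1. The rule found 1052 cells among 30085 skin cells kept after filtering, or 3.50%, and 91829 cells were kept over all skin and kidney libraries of the series. All mice were 8 weeks old and carried PDGFRb-Cre with the Z/EG reporter, so that cells with a history of PDGFR-β promoter activity made GFP, and GFP+ cells were sorted from digested back skin. SARATg mice also carried a human ZFYVE9 cDNA, the gene for SARA, in Rosa26 behind a CAG promoter and a lox-stop-lox cassette, and SARAWT mice did not. Bleomycin was given under the skin at 20 mg/kg (3 times a week for 2 weeks by the labels, daily by the study's methods), and controls received PBS. There were 3 SARAWT PBS, 3 SARAWT bleomycin, 1 SARATg PBS and 1 SARATg bleomycin libraries. The PDGFR-β promoter is active in forerunners of blood cells in the embryo, so T cells can carry GFP, and T cells without GFP were not collected. Whether a library held cells of 1 mouse or of several is not given, so p-values measure the spread between these libraries.

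An alpha-beta T cell recognizes peptides on MHC molecules through a receptor of an alpha and a beta chain (constant parts Trac, Trbc1 and Trbc2), which signals through the CD3 chains. Cd4 marks helper and regulatory cells, which see MHC class II, and Cd8a with Cd8b1 marks cytotoxic cells, which see MHC class I. In skin, resident alpha-beta T cells stand beside gamma-delta T cells, of which a part makes IL-17, and helper cells of the type 2 kind make Il4, Il5 and Il13, cytokines long studied in fibrosis.

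Of the genes that name this cell type, Trac and Cd3e were part of the rule, and their detection is a description: Trac had a UMI in 751 of the 1052 cells (71.4%) and Cd3e in 70.2%, so that 28.6% lacked Trac. Of genes that the rule did not use, the T cell kinase Lck was found in 49.8%, Cd4 in 29.4%, Cd8a or Cd8b1 in 27.8% and Foxp3 in 3.71%. Among 3135 stromal cells of the same libraries (no Ptprc UMI and at least 10 UMIs of Dcn, Lum and Col1a2), Lck was found in 2.17% and Cd8b1 in 0.159%, with library medians that centred on 15655 UMIs a cell against 7201.25 in the T cells. The stromal share was 2.52% for Cd4 and 0.0638% for Foxp3. Il1rl1 was found in 17.5% of the T cells and 15.7% of the stromal cells. It ran opposite ways in SARATg, at 50% of T cells and 5.95% of stromal cells with PBS and 6.69% and 47.2% with bleomycin. In the SARAWT libraries numbered 1 and 2, the T cell share was also lower and the stromal share higher with bleomycin. Both shares were lower with bleomycin in SARAWT 3, at 26.9% and 17.6% with PBS and 10.4% and 10.9% with bleomycin. The part of stromal RNA in the Il1rl1 share of the T cells was not tested. At the edge of the rule, 76 cells had exactly 2 receptor UMIs, and 68 cells with 1 receptor UMI that met every other condition stayed outside.

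The 301 cells without a Trac UMI had less RNA of several T cell signalling genes than those with it. In a comparison within the 5 libraries that held at least 10 of each kind, added after their number was seen, 81 of 7281 genes passed the test (1.11%; edgeR quasi-likelihood test, adjusted p under 0.05), 48 higher (0.659%) and 33 lower (0.453%) in the cells without Trac. Lower genes included the T cell signalling genes Cd28 (log2 difference -1.83, adjusted p = 0.0463), Cd5 (-2.26, adjusted p = 0.0185), Cd6 (-2.17, adjusted p = 0.0231), Lat (-1.08, adjusted p = 0.0167) and Lck (-1.07, adjusted p = 0.0480), and the coreceptors Cd4 (-1.53, adjusted p = 0.0427) and Cd8b1 (-2.20, adjusted p = 0.0480). Higher genes included Kit (1.88, adjusted p = 0.0468), the granzyme gene Gzmc (3.26, adjusted p = 0.00732) and the keratin Krt10 (6.38, adjusted p = 0.0300). A UMI of the gamma constant gene Tcrg-C4, which the rule did not use, was present in 21.3% of the cells without Trac and in 5.06% of those with it. Gamma variable genes (Trgv) ran the other way, at 0.664% and 5.06%. These percentages pool the cells of all skin libraries. In the comparison none of 5 tested gamma-delta T cell genes passed (median log2 difference 1.08). The share of cells without Trac ran from 4.35% in SARAWT bleomycin 1 to 53.4% in the library labelled SARAWT PBS 1. It was 13.5% and 29.8% in SARAWT bleomycin 2 and 3, 39.7% in the library labelled SARAWT PBS 3, 40.4% in SARATg PBS and 17.1% in SARATg bleomycin. Without SARAWT bleomycin 3 there were 36 calls, without SARATg PBS 47 and without SARATg bleomycin 50. Cells with a Trac UMI alone were used as an alternative for the comparisons below, except that of Foxp3-positive with Foxp3-negative cells.

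The libraries differ in ways that the groups do not explain. Members had a median of 5595 to 8514 UMIs by library, 14 of them had a barcode that also occurred in another skin library, and 42 were among predicted doublets. Of all kept cells, 59.8% shared a barcode with another skin library in SARAWT PBS 2, 7.58 to 25.2% in the other libraries numbered 1 or 2 of SARAWT, and 0.582 to 0.834% in the remaining 4. Mouse Zfyve9 in the T cells was at 12.1, 0 and 451 UMIs per 1000000 UMIs (CPM) in the libraries labelled SARAWT PBS 1, 2 and 3, at 0, 0 and 1.37 CPM in SARAWT bleomycin 1, 2 and 3, and at 312 and 352 CPM in SARATg PBS and SARATg bleomycin. A human ZFYVE9 entry was listed in 4 libraries, and it was at 667 and 354 CPM in the T cells labelled SARAWT PBS 1 and 2 and at 122 and 146 CPM in SARAWT bleomycin 1 and 2. Over all cells of the library the human entry was at 845 CPM in SARAWT PBS 1, 190 CPM in SARAWT PBS 2, 89.3 CPM in SARAWT bleomycin 1 and 115 CPM in SARAWT bleomycin 2, and no labelled carrier lists it. By the human entry in SARAWT PBS 1 and mouse Zfyve9 in SARAWT PBS 3, the highest of their kind among SARAWT libraries, these 2 go against their label, and whether the lower human counts in the other 3 do was not tested. They are the same libraries that carried the SARAWT PBS group below, because SARAWT PBS 2 held 4 T cells. In comparisons that rest on them, PBS against bleomycin and high against low SARA cannot be told apart.

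The share of alpha-beta T cells did not differ between treatments beyond the spread of the libraries. They made up 1.42% (58 of 4076 cells), 0.512% (4 of 781) and 3.36% (156 of 4636) of the libraries labelled SARAWT PBS 1, 2 and 3. In SARAWT bleomycin 1, 2 and 3 they were 1.07% (23 of 2155), 2.40% (52 of 2168) and 5.44% (356 of 6548). The groups overlap, and the means of the 3 PBS and the 3 bleomycin libraries were 1.77% ± 1.46 and 2.97% ± 2.24 (SD; exact permutation test, two-sided, p = 0.6; the smallest p that 3 against 3 allows is 0.1). Without SARAWT bleomycin 3 the difference of 1.20 percentage points became -0.0338, and with shared barcodes left out it was 1.5. The single SARATg libraries had 2.28% (95% Clopper-Pearson interval 1.87 to 2.76) with PBS and 5.79% (5.17 to 6.46) with bleomycin, where the intervals cover counting error only. Gamma-delta T cells with an Il17a or Cd163l1 UMI made up 1.01%, 0.384% and 5.61% of the SARAWT PBS libraries and 5.48%, 8.30% and 8.86% of the SARAWT bleomycin libraries. In SARATg they made up 1.05% with PBS and 6.47% with bleomycin. Alpha-beta T cells by the rule were the smaller set in every bleomycin library and in SARAWT PBS 3. The rule leaves out alpha-beta T cells with an Il17a or Cd163l1 UMI, and their number was not counted. Il17f, which the rule did not use, was found in 5.17%, 0% and 4.49% of members in SARAWT PBS 1, 2 and 3. It was found in 4.35%, 26.9% and 8.43% in SARAWT bleomycin and in 2.88% and 21.7% in SARATg PBS and bleomycin.

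**Figure D1:**
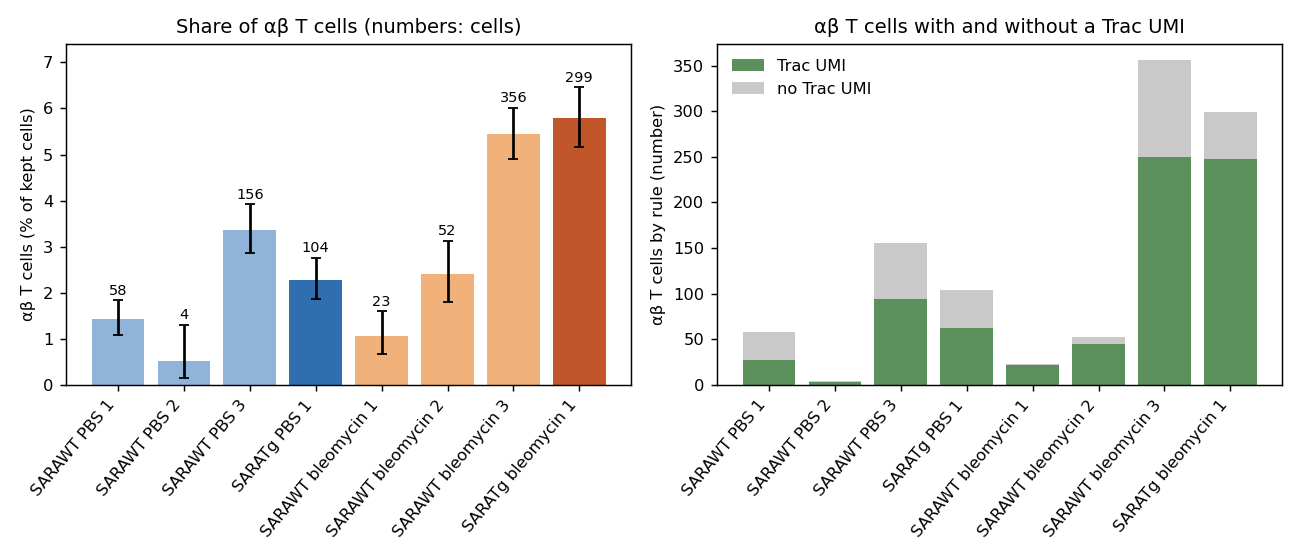
Share of alpha-beta T cells among kept cells in each skin library (left, percent, bars with 95% Clopper-Pearson intervals, number of cells above) and the number of these cells with and without a Trac UMI (right). SARAWT bleomycin 3 (5.44%) and SARATg bleomycin (5.79%) stand highest, and SARAWT bleomycin 1 (1.07%) lies below the libraries labelled SARAWT PBS 1 and 3.

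Cd8 was found in a larger part of the T cells in most bleomycin libraries, but the SARAWT groups overlap. A Cd8a or Cd8b1 UMI was present in 4 of 58, 2 of 4 and 11 of 156 T cells in the libraries labelled SARAWT PBS 1, 2 and 3 (6.90%, 50% and 7.05%). In SARAWT bleomycin 1, 2 and 3 it was present in 2 of 23, 11 of 52 and 121 of 356 (8.70%, 21.2% and 34.0%). SARATg PBS had 4 of 104 (3.85%, interval 1.06 to 9.56) and SARATg bleomycin 137 of 299 (45.8%, interval 40.1 to 51.7). The 2 positive cells of SARAWT PBS 2 make the SARAWT groups overlap, and its interval ran from 6.76 to 93.2%. With each cell thinned to 1000 UMIs, the mean share over 3 libraries was 5.20% ± 4.57 under PBS and 9.79% ± 5.38 under bleomycin (SD; exact permutation test, two-sided, p = 0.2, adjusted p = 0.4 over the 3 subset shares), and 1.76% and 18.9% in the SARATg libraries. The SARAWT difference of 4.59 percentage points was -0.0365 without thinning, 1.14 with shared barcodes left out and 2.19 without SARAWT bleomycin 3. Over all 8 libraries of both genotypes, an alternative added after the values were seen, it was 7.74 (exact permutation test, two-sided, p = 0.0571).

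After thinning, the helper and regulatory parts also had higher SARAWT means with bleomycin, and there too the SARAWT groups overlap. In SARATg the thinned Cd4 share was 11.7% with PBS and 6.65% with bleomycin, and that of Foxp3 0% and 0.811%. Cd4 was found in 24.1%, 0% and 34.0% of the T cells in SARAWT PBS 1, 2 and 3, in 47.8%, 40.4% and 27% in SARAWT bleomycin 1, 2 and 3, in 42.3% in SARATg PBS and in 23.4% in SARATg bleomycin. After thinning, the Cd4 share was 5.10% ± 4.50 with PBS and 8.51% ± 1.40 with bleomycin (SD, n = 3 each; exact permutation test, two-sided, p = 0.3, adjusted p = 0.4). Foxp3, which defines regulatory T cells, was found in 2, 0 and 9 cells of SARAWT PBS and in 2, 3 and 16 cells of SARAWT bleomycin libraries 1, 2 and 3, and its thinned share was 1.19% ± 1.16 and 2.22% ± 0.944 (SD, n = 3 each; exact permutation test, two-sided, p = 0.4, adjusted p = 0.4). SARATg bleomycin had 7 Foxp3-positive T cells of 299 and SARATg PBS 0 of 104, which allows up to 2.88% of cells with a UMI by a limit of 3 counts (3.48% by Clopper-Pearson) and sets no limit on cells that express the gene. Neither coreceptor was found in 466 of the 1052 T cells (44.3%), and both in 15.

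**Figure D2:**
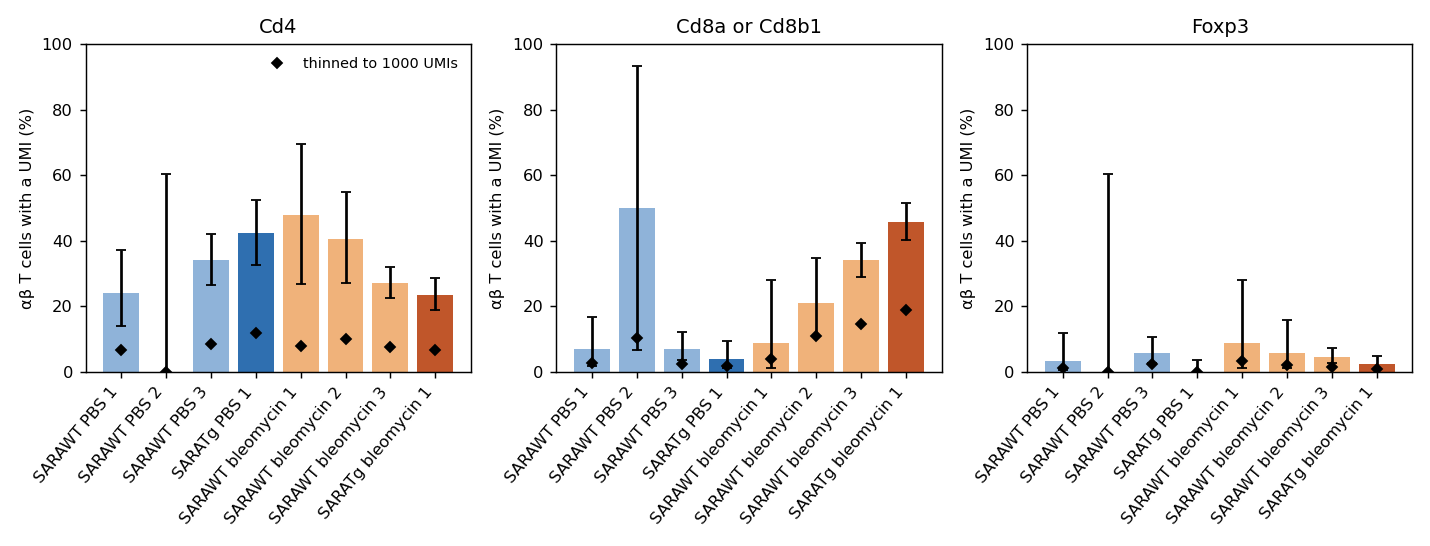
Percent of alpha-beta T cells with a UMI of Cd4, of Cd8a or Cd8b1, and of Foxp3 in each skin library (bars with 95% Clopper-Pearson intervals), with diamonds for the share after each cell was thinned to 1000 UMIs. Cd8 reaches 34.0% in SARAWT bleomycin 3 and 45.8% in SARATg bleomycin against 3.85% in SARATg PBS, and the interval of SARAWT PBS 2, with 4 cells, spans most of the axis.

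Which genes differed in these T cells between bleomycin and PBS was tested on UMIs summed per library. Between the libraries labelled SARAWT PBS 1 and 3 and the 3 SARAWT bleomycin libraries, 8 of 6285 genes passed (0.127%; edgeR, adjusted p under 0.05), all lower with bleomycin, and 345 had an unadjusted p under 0.05. The one-sided direction was not kept in other fits: DESeq2 called 7 higher and 26 lower, and the fit with no filter on low counts 124 higher and 194 lower. Leaving out SARAWT bleomycin 3 gave 0 calls, SARAWT bleomycin 1 gave 5, and leaving out SARAWT PBS 1 or 3 gave 21 or 51, with the lone PBS library then assumed to vary like the bleomycin libraries. The gene with the highest level among them was Csf2 (ENSMUSG00000018916, chromosome 11 from 54247271 to 54249667 of GRCm38), which encodes the growth factor GM-CSF. Csf2 was at 1168 and 563 CPM in SARAWT PBS 1 and 3 and at 0, 19.6 and 18.9 CPM in SARAWT bleomycin 1, 2 and 3. The groups do not overlap, and the log2 change was -5.74 ± 0.586 (SE; adjusted p = 0.0114). Both libraries left out of this fit for genotype lay on the same sides, with 784 CPM in SARATg PBS and 27.5 CPM in SARATg bleomycin, and SARAWT PBS 2 had 226 CPM from 7 UMIs of 1 cell.

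Many cells carried this difference in Csf2. A Csf2 UMI was present in 13 of 58, 1 of 4 and 27 of 156 T cells of SARAWT PBS 1, 2 and 3 and in 34 of 104 of SARATg PBS. In the bleomycin libraries it was present in 0 of 23, 4 of 52 and 9 of 356 SARAWT cells and in 8 of 299 SARATg cells. Among cells with a Trac UMI alone the log2 change of Csf2 was -5.86 (adjusted p = 0.0230), among cells with no keratin UMI it was -5.94 (adjusted p = 0.0112), and with shared barcodes left out it was -6.14 (adjusted p = 0.0201). The call was lost without SARAWT bleomycin 2 (-5.93, adjusted p = 0.0681), without SARAWT bleomycin 3 (-5.98, adjusted p = 0.163), and with the 4 cells of SARAWT PBS 2 included (-5.40, adjusted p = 0.114). In IL-17 gamma-delta T cells, Csf2 was at 52.6, 0 and 33.6 CPM in SARAWT PBS 1, 2 and 3 and at 37.8, 23.9 and 27.1 CPM in SARAWT bleomycin 1, 2 and 3, so the groups overlap there.

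The other 7 genes were Ly6d (log2 change -7.85), Fxyd3 (-6.59), Anxa8 (-6.71), Dsp (-5.55), Lgals7 (-4.46), Tpm3-rs7 (-3.97) and Perp (-2.41). Ly6d, Lgals7, Fxyd3, Perp, Dsp and Anxa8 are known as genes of epidermal cells, and the summed level of 6 keratins in the T cells was 32.3 to 517 CPM in the SARAWT PBS libraries and 7.55 to 12.5 CPM in the SARAWT bleomycin libraries. It was not lower with bleomycin in SARATg, at 1597 CPM in SARATg PBS and 2093 CPM in SARATg bleomycin, where Ly6d was at 172 and 154 CPM. A single cell held 368 of the 376 Lgals7 UMIs in SARAWT PBS 1 and another held 105 of the 110 Ly6d UMIs in SARAWT PBS 3. With members that had a keratin UMI left out, 2 genes passed, Csf2 and Tpm3-rs7. Tpm3-rs7 was at 121 and 125 CPM in the T cells of SARAWT PBS 1 and 3, at 3.57 to 10.3 CPM in SARAWT bleomycin, at 14.5 CPM in SARATg PBS and at 89.3 CPM in SARATg bleomycin. In stromal cells it was at 59.0 and 53.6 CPM in SARAWT PBS 1 and 3, at 3.29 to 6.51 CPM in SARAWT bleomycin, and at 2.69 and 88.7 CPM in SARATg PBS and bleomycin, so its pattern over the libraries was not limited to T cells.

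With the 7 skin libraries that held at least 10 of these cells in a single fit, with genotype and gene list as terms, 17 of 8206 genes passed (0.207%), 11 lower (0.134%) and 6 higher (0.0731%) with bleomycin. Csf2 was among the lower ones (log2 change -5.34, adjusted p = 0.0122), with the granzyme Gzmc (-3.63, adjusted p = 0.0160), the immediate early gene Fosb (-1.75, adjusted p = 0.0180), the NF-κB regulator Nfkbid (-1.54, adjusted p = 0.0346), Gadd45b (-1.25, adjusted p = 0.0371) and the arginase Arg1 (-5.50, adjusted p = 0.0160). The 6 higher ones included Cd8b1 (2.90, adjusted p = 0.0160) and Gzmk (adjusted p = 0.0276), a granzyme of cytotoxic cells. The rest of them were S100a8 (6.55, adjusted p = 0.0132), a neutrophil gene, Thbs1 (2.91, adjusted p = 0.0160), Ptgs2 (4.02, adjusted p = 0.0160) and Mmp19 (6.26, adjusted p = 0.0180). The treatments overlap for 5 of the 17 genes (S100a8, Thbs1, Ptgs2, Mmp19 and Mt4). This fit shares the libraries labelled SARAWT PBS 1 and 3 with the fit above. Of its 17 genes, 1 was also among the 8.

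Cd8b1, Gzmc and Fosb did not overlap between treatments in the 7 libraries of the fit. The share of cells without Trac did not overlap either, at 39.7 to 53.4% with PBS and 4.35 to 29.8% with bleomycin. Those cells had more Gzmc (log2 difference 3.26) and less Cd8b1 (-2.20) than cells with Trac. The part of this share in the differences given here was not tested. Cd8b1 (chromosome 6 from 71322788 to 71337494 of GRCm38) was at 13.8, 96.9 and 20.2 CPM in SARAWT PBS 1, 2 and 3, at 10.3 CPM in SARATg PBS, at 61.1, 94.5 and 120 CPM in SARAWT bleomycin 1, 2 and 3 and at 131 CPM in SARATg bleomycin, and in the SARAWT fit its log2 difference of 2.45 had an adjusted p of 0.0714. Gzmc was at 1130, 96.9 and 2415 CPM in SARAWT PBS, 1383 CPM in SARATg PBS, 164, 46.4 and 178 CPM in SARAWT bleomycin and 107 CPM in SARATg bleomycin (SARAWT fit: -3.76, adjusted p = 0.0643). Fosb was at 525, 161 and 434 CPM in SARAWT PBS, 774 CPM in SARATg PBS, 136, 105 and 172 CPM in SARAWT bleomycin and 231 CPM in SARATg bleomycin (SARAWT fit: -1.76, adjusted p = 0.0719). Gzmk had 0, 3 and 1 UMIs in SARAWT PBS 1, 2 and 3 and 0 in SARATg PBS, too few for a fold, and the 3 UMIs of 1 cell put SARAWT PBS 2 at 96.9 CPM, above the 14.1, 39.2 and 54.2 CPM of SARAWT bleomycin and the 2.55 CPM of SARATg bleomycin. Gzmc came from few cells, 10 of 58 in SARAWT PBS 1 and 12 of 156 in SARAWT PBS 3, and 1 cell of the latter held 46.8% of its UMIs.

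**Figure D3:**
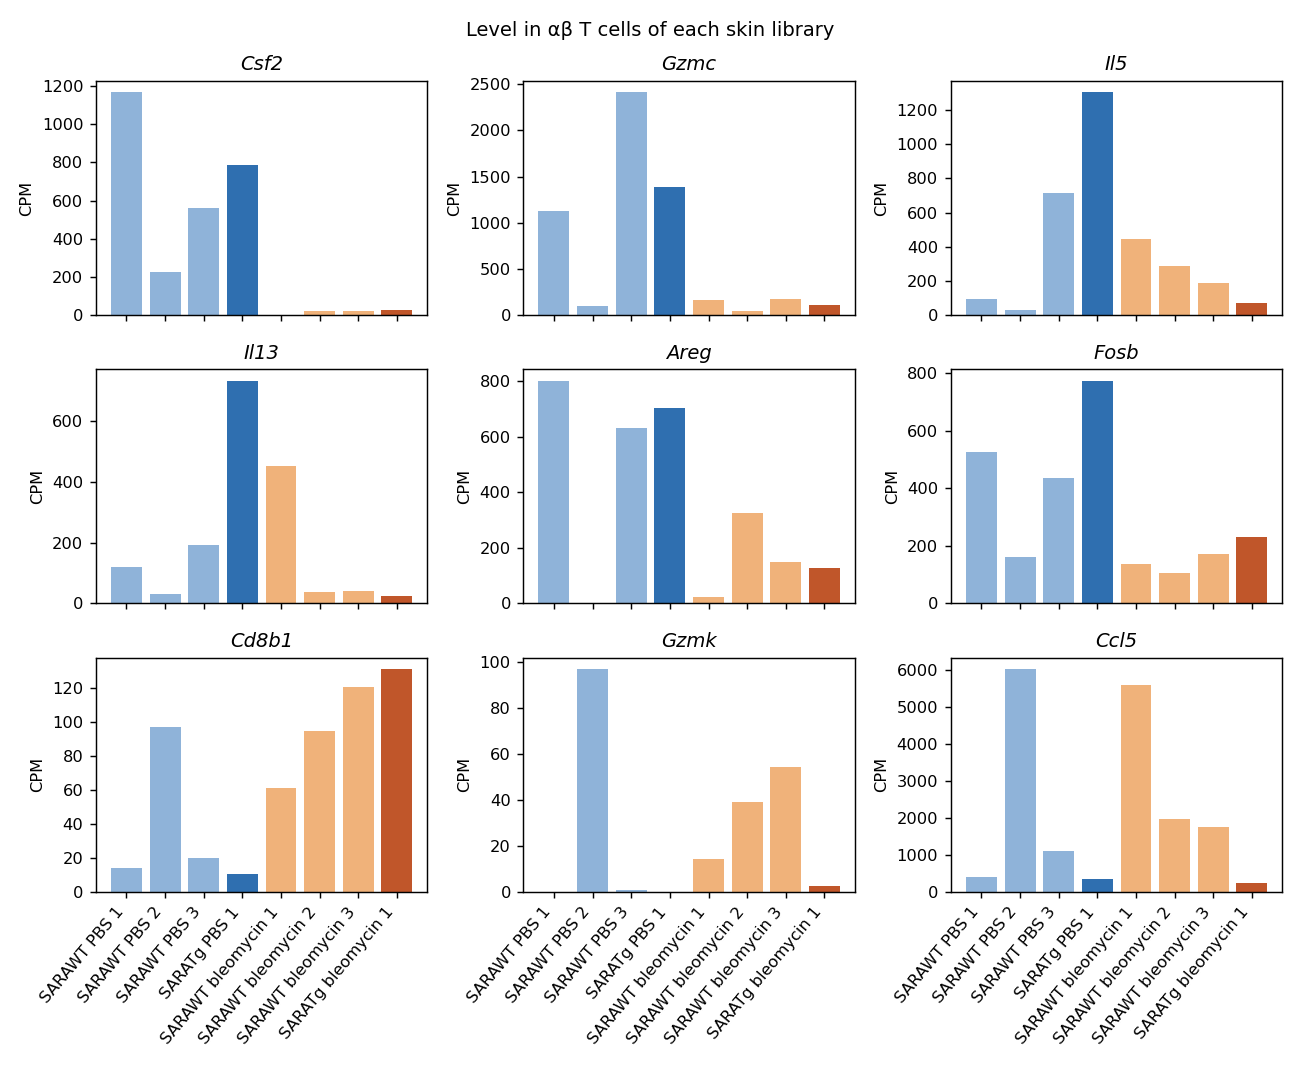
CPM of 9 genes in the alpha-beta T cells of each skin library (1 bar a library, each panel with its own axis from 0). Csf2 lies at 563 CPM or more in the PBS libraries other than SARAWT PBS 2 and at 27.5 CPM or less in the 4 bleomycin libraries, while Il13 and Ccl5 overlap between treatments.

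Across the lists of T cell genes, Csf2 was the single gene that passed in the SARAWT comparison of bleomycin with PBS. Of the type 2 list 1 of 7 tested genes was called, with a median log2 difference of -0.49 against 0.00106 over all genes tested. None of the 17 receptor signalling genes (median 0.18), 17 type 1 and cytotoxic genes (0.18), 13 regulatory genes (-0.10), 9 residency genes (-0.07), 8 type 17 genes (0.37), 9 p53 targets (0.25) or 9 TGF-β pathway genes (-0.02) passed. The 14 interferon-stimulated genes had the highest median of these lists (1.15, none called), and the 9 MHC class I genes had a median of 0.66. With the SARATg libraries in the fit these medians were 0.69 and 0.24, that of the type 2 genes was -1.84, and -0.00411 was that over all genes. Ifi27l2a was at 275, 710 and 513 CPM in SARAWT PBS 1, 2 and 3 and at 2547, 968 and 935 CPM in SARAWT bleomycin 1, 2 and 3 (log2 difference 1.96, adjusted p = 0.543), with 403 CPM in SARATg PBS and 734 CPM in SARATg bleomycin. Of the lists of other cells, none of which had a called member and whose keratinocyte and B cell genes were too low to be tested, the 2 tested mast cell and neutrophil genes had a median of -3.35, 5 stromal genes of -1.86, 5 class II and dendritic genes of -0.62, 5 NK and innate lymphoid genes of -0.49, 3 gamma-delta T cell genes of -0.50, 4 myeloid genes of 0.04 and 1 endothelial gene a value of 0.46. The mast cell protease Cpa3 was at 41.5 and 32.1 CPM in SARAWT PBS 1 and 3 and at 0, 1.78 and 0 CPM in SARAWT bleomycin 1, 2 and 3 (adjusted p = 0.0643), and the summed stromal markers were at 4825 CPM in SARAWT PBS 1, 78.5 CPM in SARAWT PBS 3, 23.5 to 1154 CPM in SARAWT bleomycin and 10339 CPM in SARATg PBS. Their part in the results was not tested. The 15 proliferation genes had a median of 0.68 and the 14 immediate early genes of -0.40, with none called, and with the SARATg libraries in the fit the medians were -0.37 and -0.50.

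Type 2 cytokine genes were found in a part of the T cells, and Il5 and Il13 were highest in SARATg PBS. On GRCm38, Il5 lies on chromosome 11 from 53720794 to 53725106 and Il13 on chromosome 11 from 53631324 to 53634702, in the same cytokine gene cluster as Il4 and near Csf2. Il5 was at 93.3, 32.3 and 717 CPM in SARAWT PBS 1, 2 and 3, at 1304 CPM in SARATg PBS, at 446, 287 and 186 CPM in SARAWT bleomycin 1, 2 and 3 and at 68.3 CPM in SARATg bleomycin. Il13 was at 121, 32.3 and 193 CPM in SARAWT PBS, 733 CPM in SARATg PBS, 451, 37.4 and 42.6 CPM in SARAWT bleomycin and 23 CPM in SARATg bleomycin. The SARAWT groups overlap for both, and the log2 differences were -0.40 for Il5 (adjusted p = 0.999) and 0.06 for Il13 (adjusted p = 1). In SARAWT bleomycin 1 a single cell held 79 of the 96 Il13 UMIs. Cells without a Trac UMI held a part of these UMIs. For Il5 it was 10 of 54 and 284 of 959 in SARAWT PBS 1 and 3 and 239 of 1262 in SARATg PBS. With bleomycin it was 29 of 95, 69 of 161 and 426 of 541 in SARAWT 1, 2 and 3 and 34 of 134 in SARATg. For Il13 it was 94 of 124 in SARAWT bleomycin 3, 87 of 258 in SARAWT PBS 3 and 92 of 709 in SARATg PBS. An Il5 UMI was found in 54 of 104 T cells of SARATg PBS (51.9%) and in 14 of 299 of SARATg bleomycin (4.68%), and an Il13 UMI in 47 and in 16. Il4 had 0 to 12 CPM in every library, and 22 of the 1052 cells had a UMI of it. Il31, the itch cytokine, was found in 0 of the 1052 cells, which allows up to 0.285% of cells with a UMI.

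Gata3, the transcription factor of type 2 helper cells, was found in 588 of the 1052 T cells. Its level was 477, 387 and 747 CPM in SARAWT PBS 1, 2 and 3, 1236 CPM in SARATg PBS, 489, 184 and 389 CPM in SARAWT bleomycin 1, 2 and 3 and 261 CPM in SARATg bleomycin (log2 difference in the SARAWT fit -0.77, adjusted p = 0.979). Among the 227 cells with an Il5 or Il13 UMI, 94.3% had Gata3, 55.9% had Il1rl1, the receptor of the alarmin IL-33, 33.9% had Cd4 and 8.37% had Cd8, and 57.3% had Trac. Cd3e was found in 48.5% of these cells against 70.2% of all members, and neither coreceptor in 59.5% against 44.3%. The gamma-delta gene Trdv4 was found in 28 of them (12.3%), against 42 of all 1052 members (3.99%). A gamma constant gene was found in 23.3% against 20.6%. Among the 96 cells with Csf2, 88.5% had Gata3, 66.7% Il1rl1, 60.4% Il5, 59.4% Il13 and 44.8% Cd4. These shares pool cells of 8 libraries and are descriptive. Innate lymphoid cells of type 2 share Gata3, Il1rl1, Il5, Il13 and Csf2, and the summed level of 8 natural killer and innate lymphoid markers in the set was 925 to 1098 CPM in SARAWT PBS and 358 to 632 CPM in SARAWT bleomycin libraries. In cells with a Trac UMI, Csf2 was at 1064 and 582 CPM in SARAWT PBS 1 and 3 and at 0, 12.4 and 19.3 CPM in SARAWT bleomycin 1, 2 and 3.

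Amphiregulin (Areg), an epithelial growth factor of regulatory and type 2 cells, was at 802, 0 and 632 CPM in SARAWT PBS 1, 2 and 3 and 704 CPM in SARATg PBS. With bleomycin it was at 23.5, 326 and 150 CPM in SARAWT libraries 1, 2 and 3 and 129 CPM in SARATg. Its log2 difference of -2.03 did not pass (adjusted p = 0.714). Ccl5, a chemokine of cytotoxic T cells, was at 401, 6038 and 1106 CPM in SARAWT PBS, 361 CPM in SARATg PBS, 5610, 1983 and 1752 CPM in SARAWT bleomycin and 228 CPM in SARATg bleomycin, with no order by treatment over all libraries (2.10 in the SARAWT fit, adjusted p = 0.650). A single cell held all 187 Ccl5 UMIs of SARAWT PBS 2, which makes the SARAWT groups overlap. Other single cells held 140 of 232 in SARAWT PBS 1 and 914 of 1194 in SARAWT bleomycin 1. Ifng, the type 1 cytokine, was at 304, 0 and 72.5 CPM in SARAWT PBS and 32.9, 62.4 and 25.1 CPM in SARAWT bleomycin (-2.21, adjusted p = 0.543), with 25.8 CPM in SARATg PBS and 32.6 CPM in SARATg bleomycin, and a single cell held 159 of the 176 UMIs in SARAWT PBS 1.

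Cd8-positive and Cd4-positive T cells differed in the cytotoxic genes, which had the most calls of the T cell lists. Cells with a UMI of Cd8a or Cd8b1 and none of Cd4 (260 cells) were compared with cells of the opposite kind that lacked Cd8 (178 cells) within SARAWT bleomycin 2, SARAWT bleomycin 3 and SARATg bleomycin, the libraries with at least 10 of each. Of 6498 genes, 124 passed (1.91%), 69 higher (1.06%) and 55 lower (0.846%) in Cd8-positive cells. Of the 19 type 1 and cytotoxic genes 12 were higher and 0 lower, with a median log2 difference of 3.00 against 0.00391 over all genes.

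Ccl5 (chromosome 11 from 83525778 to 83530518 of GRCm38) was at 150, 66.4 and 2.36 CPM in the Cd4-positive cells of SARAWT bleomycin 2, SARAWT bleomycin 3 and SARATg bleomycin and at 10163, 4350 and 342 CPM in the Cd8-positive cells, higher in 3 of 3 libraries (log2 difference 6.04 ± 0.168 SE, adjusted p = 2.35e-07). Ifng was at 10.4, 3.91 and 4.72 CPM in Cd4-positive and 313, 48.9 and 77.8 CPM in Cd8-positive cells (4.08, adjusted p = 0.00133). Nkg7, a protein of cytotoxic granules, was at 93.3, 99.0 and 2.36 CPM and at 1916, 766 and 383 CPM (3.93, adjusted p = 0.00293). The chemokine Xcl1 and the transcription factor Eomes had no UMI in Cd4-positive cells of these libraries and were at least 38.5-fold and at least 25.5-fold higher in Cd8-positive cells, taking 3 UMIs over the group as the floor. Gzma, also without a UMI in Cd4-positive cells, was at 1099 and 890 CPM in the Cd8-positive cells of SARAWT bleomycin 2 and 3 and at 0 CPM in those of SARATg bleomycin. Klrd1, Klrc1, Ctsw, Fasl, Tbx21 and Gzmk were higher as well, as were the inhibitory receptor Pdcd1 (2.54, adjusted p = 0.00318), the exhaustion-linked factor Tox (1.87, adjusted p = 0.0222) and Ikzf2 (1.72, adjusted p = 0.0151). Genes of connective tissue cells differed in both directions. Higher were Col3a1 (4.55, adjusted p = 0.00267) and Sparc (5.76, adjusted p = 0.00158) of 3 tested stromal markers, Tagln (6.53, adjusted p = 0.000593) and Thbs1 (4.31, adjusted p = 0.00274). The fibroblast genes Apod (-7.20, adjusted p = 0.000508) and Pi16 were lower. Pi16 had 50 UMIs in Cd4-positive and 0 in Cd8-positive cells. The median of the stromal list (4.55) and that of the class II and dendritic list (-3.47) were larger in size than that of the cytotoxic list, and the part of other cells' RNA was not tested.

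Some type 17 and type 2 genes were higher in Cd4-positive cells. Maf (log2 difference of Cd8 against Cd4 cells -2.02, adjusted p = 0.0161), Ccr6 (-2.39, adjusted p = 0.0194), Tmem176a (-2.43, adjusted p = 0.00257) and Tmem176b (-2.08, adjusted p = 0.0280) made 4 of 10 tested type 17 genes, all lower in Cd8-positive cells. In the type 2 list, Il5 (-4.12, adjusted p = 0.00257) and Il1rl1 (-3.63, adjusted p = 0.0181) of 6 tested genes were lower, and in the list of circulating and naive cells S1pr1 (-2.97, adjusted p = 0.0256) and Klf2 (-1.63, adjusted p = 0.0314) of 7. None of 15 proliferation genes and 13 interferon-stimulated genes passed. The class II genes H2-Aa (-3.92, adjusted p = 0.00148) and Cd74 (-3.65, adjusted p = 0.00334), with the dendritic cell genes Cd209e and Mgl2, were also lower in Cd8-positive cells. H2-Aa was at 3622, 1307 and 1565 CPM in the Cd4-positive cells of SARAWT bleomycin 2, SARAWT bleomycin 3 and SARATg bleomycin and at 60.5, 175 and 105 CPM in the Cd8-positive cells. Dendritic cells and macrophages also express Cd4, and the part of their RNA in the Cd4-positive set was not tested. With members that had a keratin UMI left out 16 genes passed, all among the 124. Leaving out SARAWT bleomycin 2 gave 33 calls, SARAWT bleomycin 3 gave 71 and SARATg bleomycin gave 231.

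**Figure D4:**
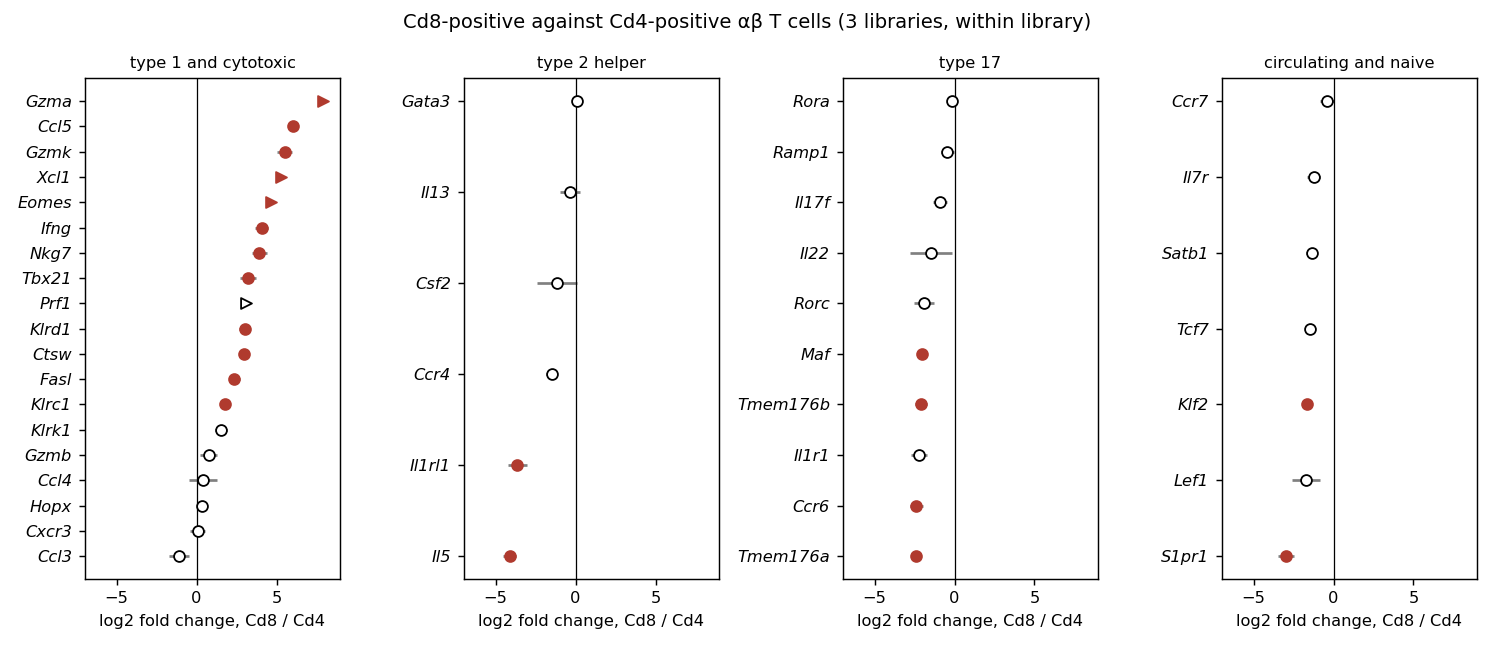
Log2 fold change of Cd8-positive against Cd4-positive alpha-beta T cells for 4 gene lists (points with SE, filled where the adjusted p is under 0.05, triangles as lower bounds where Cd4-positive cells had no UMI). The type 1 and cytotoxic list holds 12 filled genes on the Cd8 side, and the other lists shown hold filled genes on the Cd4 side alone.

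**Figure D5:**
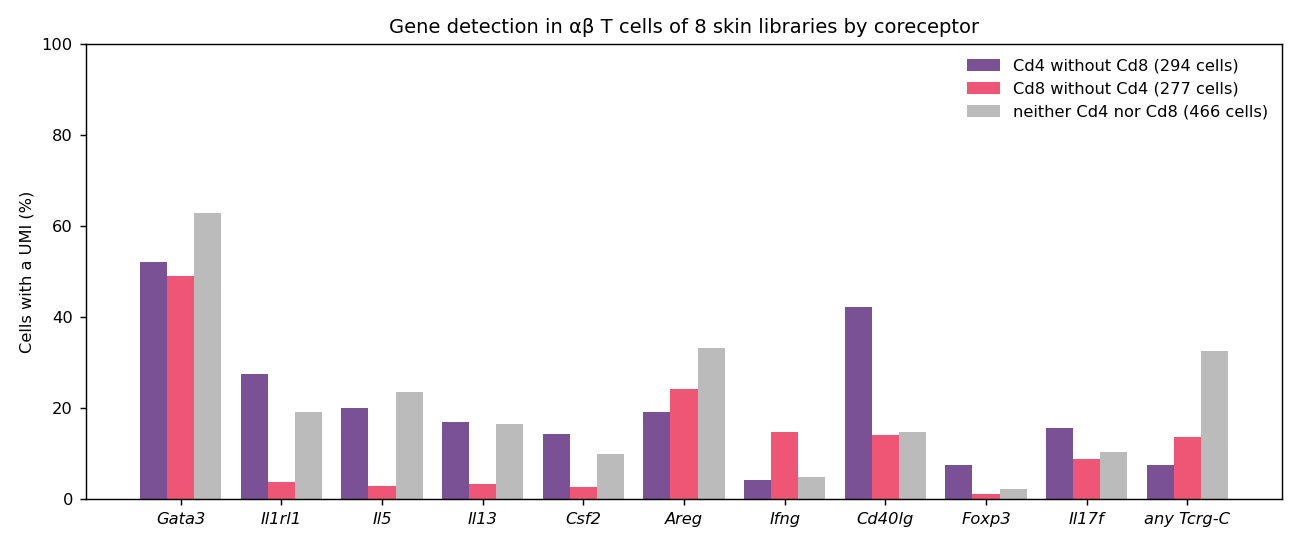
Percent of alpha-beta T cells of the 8 skin libraries with a UMI of each gene, for 294 cells with Cd4 alone, 277 with Cd8 alone and 466 with neither. Il5 is found in 20.1%, 2.89% and 23.6%, and a gamma constant gene in 7.48%, 13.7% and 32.4%, with libraries pooled although they differ in Il5 and in Cd8.

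Detection in cells with neither coreceptor, shown in the plot of detection by coreceptor, pools libraries that differ in both items, and no test was made. SARATg PBS had 51.9% Il5-positive and 3.85% Cd8-positive T cells, and SARATg bleomycin 4.68% and 45.8%, so that the mix of libraries enters these shares. Il1rl1 was found in 27.6% of Cd4-positive, 3.61% of Cd8-positive and 19.1% of the remaining cells, and Il13 in 17%, 3.25% and 16.5%. Ifng was found in 4.08%, 14.8% and 4.72%, and Cd40lg, a helper molecule, in 42.2%, 14.1% and 14.8%. Of the 466 cells with neither coreceptor, 233 had a Trac UMI (50%), against 86.4% of Cd4-positive and 90.3% of Cd8-positive cells, and 151 had a UMI of Tcrg-C1, Tcrg-C2 or Tcrg-C4.

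Foxp3-positive cells were too few for the planned comparison, which needed 10 cells on both sides in more than 1 library. With a minimum of 5 cells, SARAWT PBS 3 and SARAWT bleomycin 3 gave 15 Foxp3-positive and 128 Foxp3-negative Cd4-positive T cells, and 51 of 3568 genes passed (1.43%), 21 higher (0.589%) and 30 lower (0.841%). Of 13 tested regulatory genes other than Foxp3, 6 were higher and 0 lower: the IL-2 receptor chain Il2ra (log2 difference 3.04, adjusted p = 0.00436), the transcription factor Ikzf2 (3.96, adjusted p = 0.00751), Klrg1 (3.83, adjusted p = 0.00859), the inhibitory receptor Ctla4 (2.17, adjusted p = 0.0220), Tnfrsf9 (2.21, adjusted p = 0.0444) and Tnfrsf4 (1.91, adjusted p = 0.0363). Il10 (3.57, adjusted p = 0.126), Ebi3 (2.90, adjusted p = 0.0989), Tnfrsf18 (1.15, adjusted p = 0.278), Capg (0.68, adjusted p = 0.664), Icos (-0.33, adjusted p = 0.739), Areg (-0.16, adjusted p = 0.968) and Tgfb1 (-0.05, adjusted p = 0.972) did not pass. Macrophage and class II genes were lower in the Foxp3-positive cells: H2-Aa (-4.79, adjusted p = 0.00436; 1059 CPM on average in Foxp3-negative and 46.3 CPM in Foxp3-positive cells), H2-Ab1 (-4.84, adjusted p = 0.00401), Apoe (-4.44, adjusted p = 0.00692) and Lyz2 (-4.56, adjusted p = 0.0313), and their part in the comparison was not tested. Tnfsf8 and Tcf7 had no UMI in the Foxp3-positive cells and were at least 51.8-fold and at least 13.5-fold lower there. With a minimum of 1 cell, 104 of 2271 genes passed (4.58%), 30 higher (1.32%) and 74 lower (3.26%), and there Il10 (3.46, adjusted p = 0.00121) and Izumo1r (3.74, adjusted p = 0.000911) were higher.

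Against the IL-17 gamma-delta T cells of the same 7 libraries, alpha-beta T cells had more type 2, type 1 and regulatory RNA. The gamma-delta cells were chosen by Trdc and by Il17a or Cd163l1, so their type 17 and gamma-delta genes are a description: 10 of 12 type 17 and 8 of 8 gamma-delta genes were lower in alpha-beta T cells, with Il17f at 66.6 CPM against 1182 CPM on average. Over all genes 1634 of 9378 passed (17.4%), 736 higher (7.85%) and 898 lower (9.58%). Of the type 2 list 8 of 10 were higher and 0 lower (median log2 difference 2.95 against 0.0387 over all genes), with Gata3 (2.27 ± 0.19 SE, adjusted p = 1.09e-05) and Il5 (6.21 ± 0.361 SE, adjusted p = 1e-06) higher in 7 of 7 libraries. Markers of innate lymphoid and mast cells were higher as well, 3 of 5 tested (Il1rl1, Kit and Klre1, list median 2.78) and 2 of 7 (Kit and Cpa3), with Kit at 3.06 (adjusted p = 0.000396), and their part in the type 2 result was not tested. Csf2 was not called (1.66, adjusted p = 0.207), and it was lower in the alpha-beta cells of SARAWT bleomycin 1, 2 and 3 and SARATg bleomycin. Of 19 type 1 and cytotoxic genes 14 were higher and 2, Gzmb (-0.88, adjusted p = 0.0461) and Klrk1 (-1.33, adjusted p = 0.00172), lower.

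Regulatory and signalling genes were split between the kinds of T cell. Of 18 regulatory genes 11 were higher in alpha-beta cells, among them Ctla4 (4.26, adjusted p = 4.21e-06) and Tnfrsf4 (7.30, adjusted p = 1.32e-07), and Il2ra (-2.12, adjusted p = 0.000156) and Capg (-0.70, adjusted p = 0.00191) were lower. Of 17 receptor signalling genes 8 were higher, among them Cd28 (5.82, adjusted p = 4.91e-08) and the kinase Lck (5.67, adjusted p = 1.71e-06), and 5 were lower, among them the zeta chain Cd247 (-2.46, adjusted p = 4.41e-06) and Zap70 (-0.63, adjusted p = 0.00632). Of 10 residency genes 3 were higher (Ccr8, Itga1 and Rgs2) and 5 lower (Cd69, Crem, Cxcr6, Itgae and Znrf1), with values for Cd69 (-1.25, adjusted p = 0.000277), Cxcr6 (-1, adjusted p = 2.36e-05), Itgae (-0.77, adjusted p = 0.0169), Itga1 (2.05, adjusted p = 0.0288) and Ccr8 (4.04, adjusted p = 0.000213). Of 15 proliferation genes 10 were higher, with Mki67 at 1.16 (adjusted p = 0.0121), although in SARATg bleomycin it was lower in alpha-beta cells (26.0 against 30.1 CPM). Without the libraries labelled SARAWT PBS 1 and 3, 1109 genes passed, of which 1026 were among the 1634, and without SARAWT bleomycin 3 there were 1080.

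SARATg and SARAWT T cells were compared with treatment and gene list as terms, and 1 of 8206 genes passed (0.0122%). This was Mt4 (log2 difference 8.00, adjusted p = 0.0128), a metallothionein of squamous epithelium, whose groups overlap (0 to 22.5 CPM in SARAWT libraries, 222 and 21.9 CPM in SARATg). There were 296 genes with an unadjusted p under 0.05, and DESeq2 called 8. No gene of the T cell lists passed, and the 10 genes of the TGF-β pathway, in which SARA is known as an anchor for receptor-regulated SMADs, had a median of -0.04 against -0.0112 over all genes, with Tgfbr2 at -0.01 (adjusted p = 1) and Zfyve16 at -0.39 (adjusted p = 1). Mouse Zfyve9 had a log2 difference of 2.84 (adjusted p = 1). The SARATg libraries share their gene list with SARAWT PBS 3 and SARAWT bleomycin 3. With the gene list term, the genotype difference rested mainly on these libraries. A mouse Zfyve9 UMI was found in 79.8% of T cells in SARATg PBS and 75.6% in SARATg bleomycin. It was found in 78.2% in SARAWT PBS 3 and 1.12% in SARAWT bleomycin 3. With SARAWT PBS 3 as high as SARATg, this fit cannot show whether SARA changed a gene, in the TGF-β list or elsewhere. Without the libraries labelled SARAWT PBS 1 and 3, which go against their label, no SARAWT PBS library was left in the fit. The treatment and gene list terms then left SARATg bleomycin against SARAWT bleomycin 3 alone for the genotype, so no count is given. Without SARAWT PBS 1, SARAWT PBS 3 or SARAWT bleomycin 3 there were 4, 7 and 3 calls. Leaving out either SARATg library left 1 SARATg library in the fit, so no count is given there either.

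In skin, the T cells of the libraries labelled SARAWT PBS 1 and 3 had far more type 2 RNA than cells found by the same rule in 3 kidney libraries of vehicle-treated SARAWT mice (362, 451 and 3477 cells), sorted and sequenced in another experiment. Il5 had 1013 UMIs in the skin cells and 1 UMI in the kidney cells, and Il13 had 328 and 2. Gata3 was at 477 and 747 CPM in skin and 45.8, 65.2 and 44.5 CPM in kidney (log2 difference 3.69 ± 0.31 SE, adjusted p = 0.00438), and 7 of 10 type 2 genes were higher in skin (median 3.62 against -0.118 over all genes). Mast cell genes were higher in skin too, Cma1 (6.70, adjusted p = 0.0202), Cpa3 (6.42, adjusted p = 0.0155), Kit (3.31, adjusted p = 0.0188) and Mcpt4, 4 of 8 in the mast cell and neutrophil list, as were the stromal genes Col1a1, Col1a2 and Dcn (3 of 4), and their part in the type 2 result was not tested. Over all genes 1895 of 10502 passed (18.0%), 1101 higher (10.5%) and 794 lower (7.56%) in skin, with 212 or 213 left without SARAWT PBS 1 or 3, 587 or 748 without kidney library 1 or 2 and 3318 without kidney library 3. Cd8b1 was lower in skin, at 13.8 and 20.2 CPM against 179, 190 and 558 CPM (-4.08, adjusted p = 0.0233), as were Gzmk and Gzma, while 11 of 14 immediate early genes were higher. Tissue, experiment, SARA level, Cell Ranger version and, for SARAWT PBS 1, gene list cannot be told apart here.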

How the data were processed

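RNA of sorted GFP+ cells was counted with 10x Genomics droplets (3′ v3 chemistry). The authors deposited UMI counts per gene and cell barcode, made with Cell Ranger on mm10 per the submitters' processing notes (Cell Ranger 3.0.2, Seurat 2.3.4), while the file headers give Cell Ranger 4.0.0 for SARAWT libraries 1 and 2 of both treatments and 3.1.0 for the other 4 skin libraries. The counts are not normalized. Their 2 gene lists were joined by 30406 shared Ensembl identifiers. Positions are from GENCODE vM21 (GRCm38).

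Barcodes under 200 genes or over 20% mitochondrial UMIs were dropped, and doublets were scored (scrublet in scanpy 1.11.5, 0.8% per 1000 cells) but left out only as an alternative. Alpha-beta T cells were taken by the receptor rule given above. The members, gene lists and named genes were chosen with earlier results of these data known. Named are the genes of the lists, the strongest called genes whose groups did not overlap (50 CPM or more, up to 10 each way), and the type 2 cytokine genes with Gata3 and Zfyve9. Arg1, Nfkbid, Gadd45b, Ptgs2, Mmp19 and Mt4 were named after their values were seen.

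UMIs were summed per library with at least 10 cells of a kind and tested with edgeR 4.0.16 in R 4.3.3 (low genes dropped by filterByExpr, TMM scaling, two-sided quasi-likelihood test, Benjamini-Hochberg adjustment at 0.05). Genes used to choose the cells were not called. Pairs of kinds within libraries had the library as a block. The Foxp3 comparison could not be fitted as designed. Shares were compared over libraries with exact permutation tests (scipy 1.17.1) and given with 95% Clopper-Pearson intervals, and a count of 0 was given the limit of 3 counts. Each main fit was tested on simulated data in which 200 genes carried a log2 change of 2: 62.5% were recovered for bleomycin against PBS (8.76% of calls false), 73.5% for SARATg against SARAWT (9.26%), 96.5% against gamma-delta cells (4.93%), 80.5% for Cd8 against Cd4 (3.59%), 10% for skin against kidney (4.76%) and 83% for cells without Trac (6.21%). The changed genes had a mean of at least 10 UMIs per summed library, and the simulated libraries otherwise differed only in depth and random spread. Recovery of lower genes was not tested. The Foxp3 fits and the bleomycin fit with both genotypes were not simulated. DESeq2 1.42.0, other cell filters, rules, normalization and low-count filters, each library left out in turn and the replicate block were the alternatives. Further tools were Python 3.11.15, numpy 2.4.6, pandas 2.3.3 and matplotlib 3.10.9. Kidney libraries other than the 3 SARAWT vehicle libraries were not used here.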

Additional observations from a re-analysis of the deposited data

Results flagged for a closer look

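A human ZFYVE9 entry stood outside the gene comparisons, and it was found in alpha-beta T cells of all 4 libraries that list it, although all 4 are labelled SARAWT. It was at 667 CPM (388 UMIs) in the library labelled SARAWT PBS 1, at 354 CPM (11 UMIs) in SARAWT PBS 2, at 122 CPM (26 UMIs) in SARAWT bleomycin 1 and at 146 CPM (82 UMIs) in SARAWT bleomycin 2. Over all cells of these libraries it was at 845, 190, 89.3 and 115 CPM. No SARATg library lists the entry, so there is no level of a labelled carrier beside it.

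The level of Cd4 differed between treatments in opposite directions in the genotypes, and Cd4 did not pass for bleomycin against PBS by edgeR, with a log2 difference of 0.38 (adjusted p = 0.979) in SARAWT and of 0.03 (adjusted p = 0.998) with the SARATg libraries in the fit. Cd4 in SARATg bleomycin minus SARATg PBS T cells was -44.4 CPM, while each SARAWT bleomycin library lay above each SARAWT PBS library, by the least between SARAWT bleomycin 3 (79.6 CPM) and SARAWT PBS 3 (76.2 CPM). The genotypes had 1 SARATg library per treatment, and the difference between them was not tested.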

How the results depend on the processing

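For bleomycin against PBS the 8 calls became 33 with DESeq2, 318 with no filter on low counts, 3 with predicted doublets left out, 0 with a minimum of 1 cell (229 genes with an unadjusted p under 0.05), 17 with both genotypes (7 libraries), 3 with a Trac UMI alone and 2 with no keratin UMI, and leaving out 1 library gave 0 to 51. For SARATg against SARAWT the 1 call became 8 with DESeq2, 182 with no filter, 0 with no gene list term (315 with an unadjusted p under 0.05), with a Trac UMI alone (171) or with no keratin UMI (263), 142 without both PBS libraries, and 1 to 52 with 1 library left out. For Cd8 against Cd4 the 124 calls became 80 with DESeq2, 533 with no filter, 16 with no keratin UMI and 33 to 231 with 1 library left out. For cells without Trac the 81 calls became 128 with DESeq2, 555 with no filter, 153 without doublets, 167 with a minimum of 1 cell and 36 to 68. The gamma-delta comparison gave 1080 to 1595 and the kidney comparison 212 to 3318 with 1 library left out, and the Foxp3 comparison 51 or 104 by cell minimum. The share difference of 1.20 points ran from -0.0338 to 2.15 with 1 library left out. Without thinning, the Cd4 difference was 19.0, Cd8 -0.0365 and Foxp3 3.25 points, and with 1 library left out the thinned ones ran from 0.858 to 5.12, 2.19 to 7.49 and 0.434 to 1.59. C1qb, a macrophage gene lower in alpha-beta than gamma-delta T cells, turned to 0.42 with doublets left out. The cause of these changes was not tested.

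Deviations from the group means correlated at r = 0.178 and 0.394 over 4525 genes for numbers 1 and 3 and at -0.394 to 0.237 for different numbers. The deviations of only 2 PBS libraries mirror each other, so this cannot tell whether the numbers pair the samples. With the replicate block the bleomycin comparison gave 108 calls (49 higher, 59 lower) and the kidney comparison 925, the share difference stayed 1.20 (p = 0.5, exact sign-flip test over 3 pairs, smallest p 0.25), and the subset differences stayed 3.41, 4.59 and 1.03 points. The number of cells limits rare subsets most in SARAWT PBS 2, where 0 of 4 T cells has a Clopper-Pearson upper limit of 60.2% of cells with a UMI.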
